A study of Cavia porcellus with 34 samples.

Results

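The genes described here carry thyroid hormone into brain cells, convert it and bind it. The list held 8 genes, namely the transporters SLC16A10 and SLCO1C1, the carrier TTR, the deiodinases DIO2 and DIO3, the cytosolic binding protein CRYM and the nuclear receptors THRA and THRB, and they were grouped by function, with earlier results of these data known. They were followed in the paraventricular nucleus (PVN) of the hypothalamus of female guinea pigs on postnatal day 40. Of the 8 genes, 6 had a row among the 12114 genes of the F1 table, 5 among the 12207 of F2 and 5 among the 12068 of F3, and every one of them passed the filter on low values. DIO2 and DIO3 in all generations, and TTR in F2 and F3, were not analysed here, so hormone conversion itself is not covered.

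The brain takes up thyroxine through membrane transporters, turns it into the active triiodothyronine with the type 2 deiodinase, mostly in glia, and inactivates both hormones with the type 3 enzyme, mostly in neurons. Triiodothyronine then binds receptors that sit on the DNA of target genes and switch from repression to activation. The PVN has a particular place in this pathway, because its TRH neurons drive the pituitary-thyroid axis and are themselves held back by the hormone.

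F1 animals were exposed in utero to betamethasone, a synthetic glucocorticoid (sGC, labelled Beta) given to the pregnant F0 females in repeated courses, or to saline vehicle (Veh, labelled Control). F2 and F3 animals were not treated. They descended from treated or vehicle F0 females through F1 and F2 males of the line mated with untreated females from outside the colony, so an F2 or F3 group is defined by its ancestor's treatment. Each group held 5 animals in F1 and F2 and 6 in F3, and each animal gave 1 library. In the study's methods a sample size counts independent litters. The labels name no litter, and each animal was treated here as independent.

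The authors rounded the normalized counts to whole numbers, and the sum per animal was 15.57 to 21.94 M in F1, 15.65 to 19.44 M in F2 and 18.69 to 18.98 M in F3. The original read depth per gene is not recorded in them. The 3 tables were normalized apart, so levels are compared only within a generation, and no level is compared between genes because transcript lengths were not used here. F1 Veh replicate SGM11 was, after the normalization, a fixed combination of the other animals on the log scale, with 99.5% of 11874 genes within 0.05 log2 units, so the F1 Veh group held in effect 4 independent animals. All 9 genes of a PVN neuroendocrine marker list, among them AVP, OXT, CRH and SIM1, were above 0 in every animal, and their summed value ranged from 29219 to 226859 normalized counts in F1, from 67605 to 187354 in F2 and from 22606 to 62338 in F3. The paper states that its punches may also hold tissue of neighbouring hypothalamic regions. The values given here are therefore those of the punch and not of the PVN alone.

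No member passed the test between sGC and Veh in any generation. The test was limma on log2(value + 1), with p-values adjusted by Benjamini-Hochberg over all genes of the generation and a threshold of 0.05. In F1, 0 of 6 members passed, where 0.657% of 11874 genes did. In F2 it was 0 of 5 members and 0% of 11965 genes, and in F3 0 of 5 members and 0.0506% of 11866 genes. The paper's own edgeR test called more genes than this in each generation. With median-of-ratios size factors, which bring the animals to a common scale, 17.3% of genes passed in F1, 0% in F2 and 0.0421% in F3, and again no member did. At an unadjusted p under 0.05 the members counted 2 of 6 in F1, SLCO1C1 and TTR, beside 13.6% of all genes, 0 of 5 in F2 beside 11.7%, and 0 of 5 in F3 beside 13.1%. TTR passed the filter on low values only through the sGC animals, so its p is a description only. The values of sGC and Veh animals overlapped for every member in every generation. Over all genes, 2.04% in F1, 2.4% in F2 and 1.21% in F3 had groups that did not overlap. At these shares and with so few members, this does not set the members apart from other genes.

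**Figure D1:**
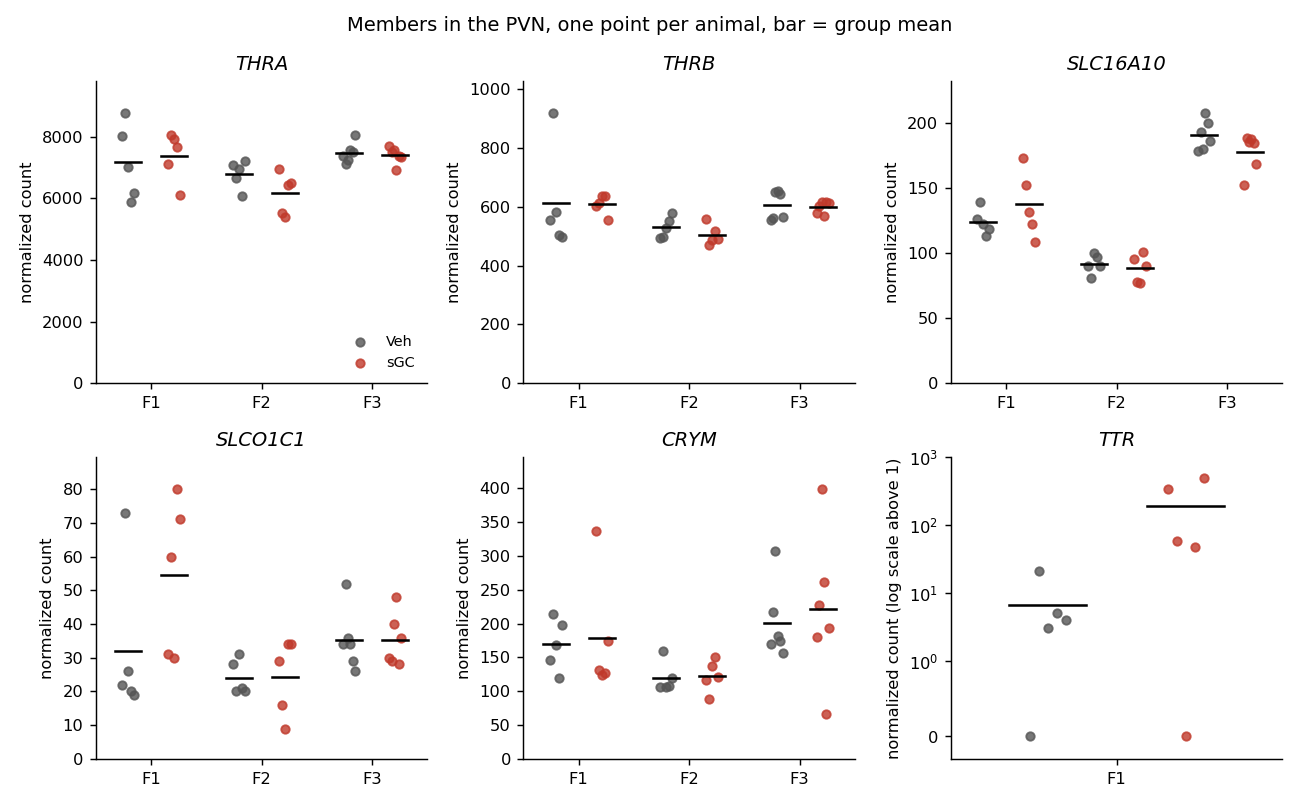
Normalized counts of the 6 members with values, 1 point per animal, grey for Veh and red for sGC, black bars for group means; the axes are linear except for TTR, whose axis is logarithmic above 1. THRA sat between 5389 and 8757 in every animal, while TTR in F1 ran from 0 to 492 and overlapped between the groups.

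SLC16A10 (MCT10) moves aromatic amino acids and iodothyronines across the cell membrane. In F1 its normalized counts were 126, 139, 122, 113 and 118 in Veh and 173, 152, 131, 122 and 108 in sGC. The spread was wider in sGC, which held both the highest and the lowest animal. The log2 fold change was 0.13 (SE 0.17, adjusted p = 0.799, limma). In F2 the counts were 90, 81, 100, 97 and 90 in Veh and 95, 78, 77, 101 and 90 in sGC, a log2 fold change of -0.06 (SE 0.13, adjusted p = 0.872, limma). These groups covered almost the same range.

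In F3 SLC16A10 ranged from 178 to 207 normalized counts in Veh, with a median of 189.5, and from 152 to 188 in sGC, with a median of 184.5. All 6 sGC animals lay under the Veh mean of 190.7 ± 11.4 (SD, n = 6), and their own mean was 177.3 ± 14.4 (SD, n = 6). On the log2 scale sGC minus Veh was -0.11 with a 95% interval of -0.24 to 0.03 (adjusted p = 0.509, limma), so the interval included 0. The 4 sGC animals sequenced together with the Veh animals gave a log2 fold change of -0.10 (adjusted p = 0.714, limma).

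SLCO1C1 (OATP1C1) is a high-affinity thyroxine transporter of brain capillaries, astrocytes and tanycytes. Its normalized counts in F1 were 22, 73, 26, 20 and 19 in Veh and 31, 60, 30, 80 and 71 in sGC. Veh replicate SGM7, at 73, stood far above the other Veh animals, which reached 26, and every sGC animal was above those 4. The groups overlapped through that animal alone. Means were 32 ± 23.1 (SD, n = 5) for Veh and 54.4 ± 22.9 (SD, n = 5) for sGC, a log2 fold change of 0.84 (SE 0.34) and an unadjusted p of 0.0227 (adjusted p = 0.276, limma).

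The side of the threshold on which SLCO1C1 fell in F1 rested on 1 animal. Without Veh replicate SGM7 the log2 fold change of SLCO1C1 was 1.18 (adjusted p = 0.0460, limma), and without each of the other animals it ranged from 0.67 to 1.02 with an adjusted p of 0.126 or more. SGM7 also had the largest summed value of all F1 animals, 21.94 M, and divided by its size factor it held 60.7 SLCO1C1 counts against 20.9 to 26.9 in the other Veh animals. With size factors in all animals the log2 fold change was 0.78 (adjusted p = 0.168, limma). At 19 to 80 normalized counts per animal, a few reads weigh on each value.

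In F2 SLCO1C1 counted 28, 20, 31, 21 and 20 in Veh and 29, 16, 9, 34 and 34 in sGC. The sGC animals held both the highest and the lowest values, and the log2 fold change was -0.11 with a 95% interval of -0.84 to 0.63 (adjusted p = 0.913, limma). In F3 it ranged from 26 to 52 in Veh, with a median of 34, and from 28 to 48 in sGC, with a median of 33. The group means were both 35.2, and the log2 fold change was 0.01 with a 95% interval of -0.36 to 0.37 (adjusted p = 0.990, limma). An F1 change of 0.84 thus lies outside the F2 and F3 intervals, but the difference of the effects was tested directly and did not pass. F1 exceeded F2 by 0.94 (SE 0.53, adjusted p = 0.387, limma) and F3 by 0.83 (SE 0.41, adjusted p = 0.272, limma).

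Markers of the cells that carry SLCO1C1 were read beside it, and 0 of them passed the threshold in F1. All 9 genes of an endothelial list had higher means in F1 sGC, 7 at an unadjusted p under 0.05 beside 13.6% of all genes, and their summed value was 8609 to 12526 normalized counts in Veh and 10712 to 19203 in sGC. The animals with the largest endothelial sums were sGC replicates SGM4, at 19203, and SGM8, at 17817. SLCO1C1 stood at 31 and 60 in these animals. It was highest in SGM16, Veh replicate SGM7 and SGM20, at 80, 73 and 71, whose endothelial sums were 12906, 12526 and 10798. The sums of SGM16 and SGM7 came next after those of SGM4 and SGM8, and that of SGM7 was the largest in Veh. Of 9 astrocyte markers 8 were higher in F1 sGC, 1 at an unadjusted p under 0.05, with sums of 143040 to 209352 in Veh and 171061 to 220979 in sGC. Of 7 tanycyte markers 4 were higher and 3 lower, none at an unadjusted p under 0.05, with sums of 5604 to 11349 in Veh and 5928 to 13149 in sGC. The largest Veh tanycyte sum, 11349, was that of SGM7. It was 10414 in SGM16, 8687 in SGM20 and 5928 in SGM8. The part of these cells in the SLCO1C1 values was not tested. In bulk tissue, fewer cells of a type and less RNA per cell cannot be told apart.

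**Figure D2:**
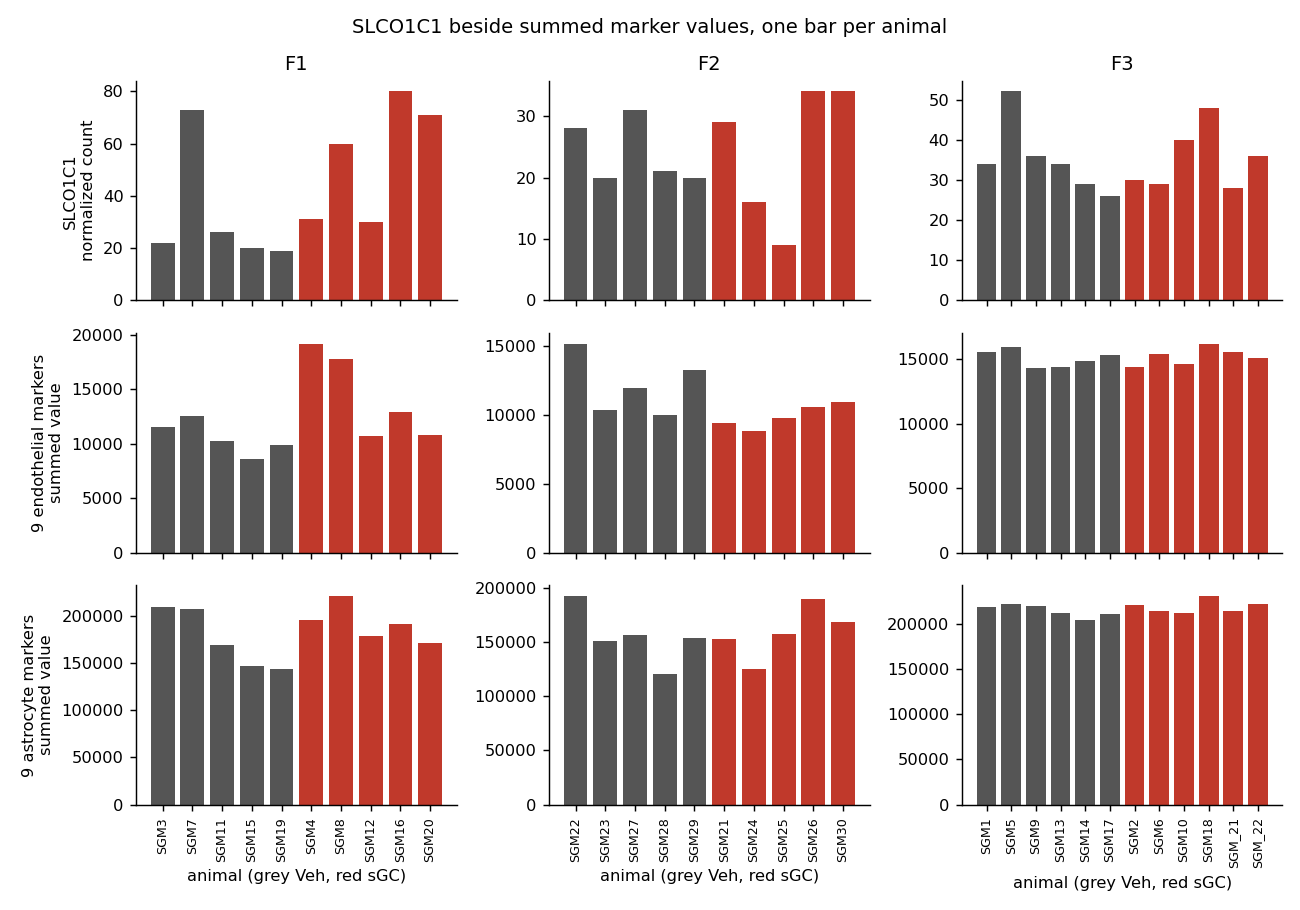
SLCO1C1 normalized counts (top row) and the summed normalized counts of 9 endothelial (middle) and 9 astrocyte markers (bottom), 1 bar per animal, grey for Veh and red for sGC, for F1, F2 and F3 from left to right. In F1 the tallest SLCO1C1 bars, SGM16 at 80, SGM7 at 73 and SGM20 at 71, were not those with the largest endothelial sums, SGM4 and SGM8. SGM16 and SGM7 came next in endothelial sum.

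TTR (transthyretin) binds thyroxine in blood and cerebrospinal fluid, and in the brain the choroid plexus is its main source. In F1 Veh it was listed at 0 in SGM3 and at 21, 3, 5 and 4 normalized counts in SGM7, SGM11, SGM15 and SGM19. In F1 sGC it counted 332 in SGM4, 58 in SGM8, 47 in SGM16 and 492 in SGM20, and it was listed at 0 in SGM12. So 4 of 5 sGC animals exceeded every Veh animal and 1 was at the bottom with a Veh animal.

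TTR had a log2 fold change of 3.49 (SE 1.07) and a 95% interval of 1.27 to 5.70. It was in absolute size the largest of all 11874 genes tested in F1. It did not pass the threshold, with an unadjusted p of 0.00345 (adjusted p = 0.127, limma). Its mean was 6.6 in Veh and 185.8 in sGC, so TTR passed the filter at a mean of 10 only through the sGC animals. The rank, the interval and the p-values of TTR, also those with 1 animal left out, are therefore descriptions only and lend no support to a change. The residual spread of TTR on the log2 scale after size factors was 2.74, against a median of 0.12 over all genes, and no tested gene had a larger one. Without sGC replicate SGM12 the log2 fold change was 4.92 (adjusted p = 5.94e-05, limma). Without each of the other animals it ranged from 2.69 to 4.03, with an adjusted p of 0.0902 or more. With a pseudocount of 10 in place of 1 it was 2.59 (adjusted p = 0.0634, limma), since values near 0 weigh less.

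Choroid plexus markers were read beside TTR. Its fold change was the largest of all F1 genes tested, so no marker could lie further from 0. Of 15 markers 9 had a row in F1, and KCNJ13, KCNE2, AQP1, CLDN2, CALML4 and SLC13A4 were not analysed here. Of the 8 markers tested, 5 were higher and 3 lower in sGC. The threshold was passed by 0, and 3 had an unadjusted p under 0.05 beside 13.6% of all genes. The log2 fold changes ranged from -0.36 for OTX2 to 0.95 for PRLR, the prolactin receptor. PRLR counted 23 to 73 in Veh and 53 to 103 in sGC, and with size factors it passed (adjusted p = 0.0356, limma). F5, a coagulation factor, was highest in SGM4, at 416, and SGM8, at 315, against 113 to 214 in the other animals. None of the markers was at 0 in any animal. The summed marker value was 1725 to 2513 normalized counts in Veh and 2209 to 2900 in sGC, and ENPP2, which oligodendrocytes also express, made up 48.7% to 58.5% of it per animal.

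CLIC6, a chloride channel protein, and SLC4A5, a bicarbonate transporter, are both strongly expressed in choroid plexus. CLIC6 ranged from 8 to 21 normalized counts in Veh and from 2 to 23 in sGC, and SLC4A5 from 3 to 9 and from 3 to 14. In SGM20, where TTR was highest at 492, CLIC6 counted 22 and SLC4A5 14, the highest SLC4A5 value of the 10 animals. In SGM4, with TTR at 332, they counted 13 and 7, and in SGM12, with TTR listed at 0, 23 and 3. OTX2 was highest in Veh replicate SGM15, at 136, where TTR counted 5. FOLR1, the folate receptor, ranged from 271 to 534 in Veh and from 402 to 577 in sGC. The part of choroid plexus tissue in the TTR values was not tested beyond these values.

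**Figure D3:**
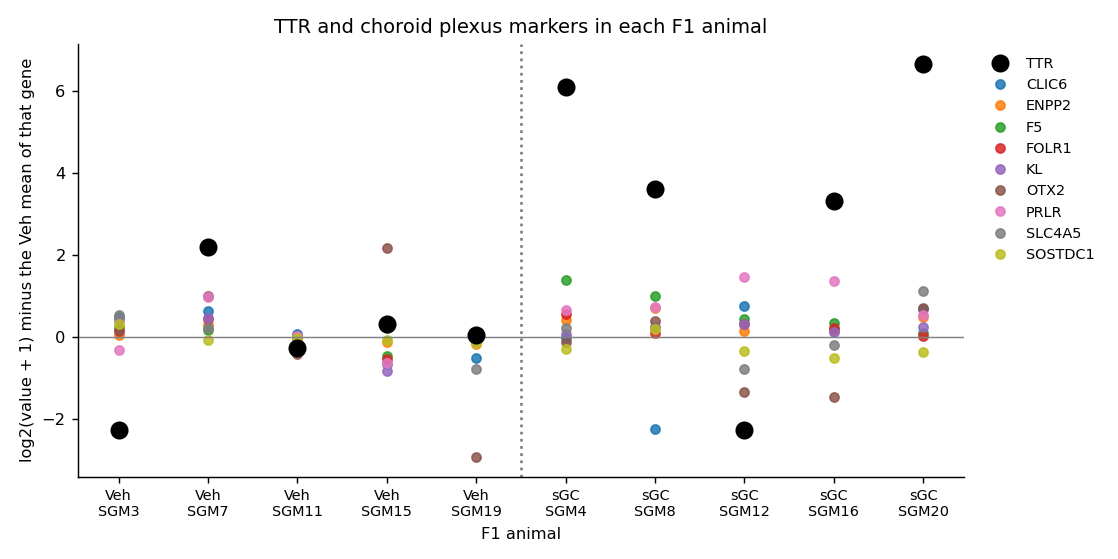
TTR (black) and 9 choroid plexus markers (colours) in the 10 F1 animals, as log2(value + 1) minus the Veh mean of the same gene; the dotted line divides Veh from sGC. TTR is far above its Veh mean in SGM4, SGM8, SGM16 and SGM20 and below it in SGM3 and SGM12, where it was listed at 0, while the markers stay closer to 0 in most animals. No gene tested in F1 had a larger residual spread than TTR, so this is not particular to the markers.

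CRYM (mu-crystallin) binds triiodothyronine in the cytosol. In F1 it counted 147, 215, 168, 119 and 198 in Veh and 337, 132, 124, 127 and 175 in sGC. A single sGC animal, SGM4, was far above the rest, whereas the sGC median of 132 was under the Veh median of 168. The log2 fold change was -0.01 with a 95% interval of -0.48 to 0.47 (adjusted p = 0.997, limma), and without SGM4 it was -0.26 (adjusted p = 0.746, limma). In F2 CRYM counted 106, 160, 107, 108 and 120 in Veh and 117, 89, 137, 150 and 121 in sGC. The groups overlapped throughout, and the log2 fold change of 0.03 had a 95% interval of -0.33 to 0.38 (adjusted p = 0.952, limma).

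In F3 CRYM ranged from 156 to 307 in Veh, with a median of 178, and from 67 to 399 in sGC, with a median of 210. Both extremes among the 12 animals were sGC animals, SGM_21 at 67 and SGM10 at 399. On the log2 scale sGC minus Veh was -0.0028, with a 95% interval of -0.68 to 0.68 (adjusted p = 0.998, limma). SGM_21 was 1 of 2 sGC animals sequenced in a second batch, in which 2 Veh animals of the first were sequenced again, and those repeat libraries were not analysed here. With the first batch alone, 6 Veh and 4 sGC animals, the log2 fold change was 0.38 (adjusted p = 0.593, limma), and without SGM_21 only it was 0.30 (adjusted p = 0.629, limma). The difference did not pass the threshold in any of these fits.

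THRA encodes the receptor that predominates in the brain. It was among the steadier genes of the tissue. Normalized counts in F1 were 8022, 8757, 7030, 5882 and 6161 in Veh and 7117, 8059, 7930, 7676 and 6095 in sGC, and the highest Veh value was that of SGM7, the animal with the largest total. The log2 fold change was 0.05 with a 95% interval of -0.22 to 0.32 (adjusted p = 0.907, limma). With size factors the Veh mean was 7249 ± 288 (SD, n = 5) and the sGC mean 7190 ± 402 (SD, n = 5), and the log2 fold change of -0.01 had a 95% interval of -0.11 to 0.09 (adjusted p = 0.877, limma).

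In F2 THRA counted 7080, 6650, 6956, 6069 and 7226 in Veh and 6948, 5517, 5389, 6442 and 6510 in sGC. Of the 5 sGC animals, 1 was above the Veh mean of 6796 ± 459 (SD, n = 5). The log2 fold change of -0.15 had a 95% interval of -0.33 to 0.04 (adjusted p = 0.528, limma), and with size factors it was -0.07 (adjusted p = 0.643, limma). The median over all genes in F2 was -0.08 as deposited. In F3 THRA ranged from 7115 to 8054 in Veh, with a median of 7444.5, and from 6936 to 7701 in sGC, with a median of 7437.5. On the log2 scale sGC minus Veh was -0.01 with a 95% interval of -0.08 to 0.05 (adjusted p = 0.900, limma), the narrowest interval of any member.

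The table gives 1 value per gene, so the THRA splice forms, of which one does not bind the hormone, were not separated. NR1D1, a nuclear receptor gene, lies beside THRA in the mCavPor4.1 annotation, and the library kit does not mark the strand, so reads of any overlap between the genes cannot be told apart.

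THRB encodes the receptor through which the hormone restrains TRH neurons. In F1 it counted 556, 917, 583, 504 and 496 in Veh and 604, 613, 635, 636 and 554 in sGC. SGM7 was again the high Veh animal, and the 5 sGC animals lay within 554 to 636. The log2 fold change was 0.03 with a 95% interval of -0.28 to 0.34 (adjusted p = 0.954, limma), and without SGM7 it was 0.19 (adjusted p = 0.261, limma). After size factors SGM7 still held 763 counts, against 528 to 602 in the other Veh animals.

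In F2 THRB counted 495, 497, 527, 553 and 577 in Veh and 557, 469, 486, 519 and 491 in sGC, a log2 fold change of -0.07 (SE 0.08, adjusted p = 0.731, limma). In F3 it ranged from 554 to 652 in Veh, with a median of 604, and from 570 to 617 in sGC, with a median of 607.5. All sGC animals lay inside the Veh range, and the log2 fold change was -0.01 with a 95% interval of -0.11 to 0.10 (adjusted p = 0.966, limma). The signs of the F1 and F2 values of THRB, of the F1 value of THRA and of the F2 value of SLC16A10 changed with size factors, all at sizes within their standard errors.

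**Figure D4:**
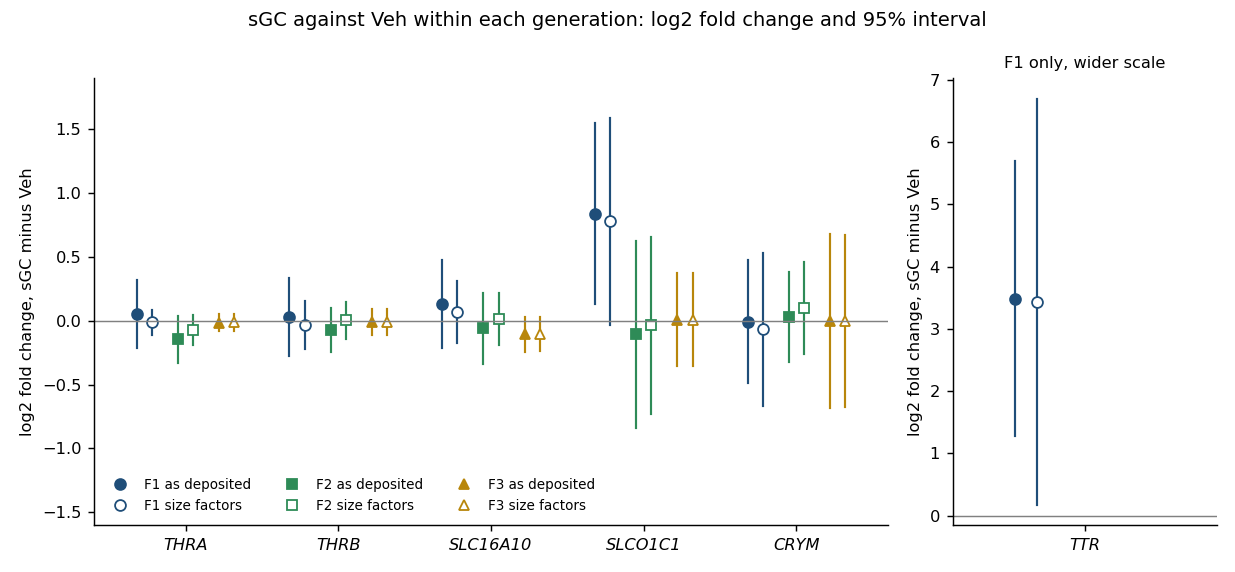
Log2 fold change of sGC against Veh for each member with its 95% interval from limma, filled symbols for values as deposited and open symbols with median-of-ratios size factors, in F1 (circles), F2 (squares) and F3 (triangles); TTR has its own wider axis. All intervals include 0 except those of TTR in F1 and of SLCO1C1 in F1 as deposited, 0.13 to 1.55. Those of TTR are descriptions only, since TTR passed the filter on low values only through the sGC animals.

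The members differed widely in how much they varied between animals of a group. Ranked by residual spread of log2 values after size factors, THRA was at the percentile 18.1 of tested genes in F1, 18.6 in F2 and 24.9 in F3, that is, steadier than most genes. THRB and SLC16A10 were in the middle, from percentile 32.7 to 65.7. SLCO1C1 stood at percentile 97.8 in F1, 95.8 in F2 and 94.8 in F3, and CRYM at 94.3, 83.2 and 99.5. The receptors were thus measured with the least spread and the thyroxine transporter, the carrier and the cytosolic binding protein with the most. Low counts widen the spread on a log scale, and their part in these values was not tested. SLCO1C1 was at 9 to 80 normalized counts per animal, TTR at 0 to 492 in F1, and CRYM at 67 or more in every animal.

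Members did not move together from animal to animal. Over 32 animals, with group means removed, Pearson's r between pairs of the 5 members in all tables ranged from -0.25, for THRA and CRYM, to 0.23, for SLC16A10 and CRYM. Each pair shares its libraries and their scaling, and the values are descriptions.

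The genes most like each member were named by the highest r among 11429 genes over the same 32 animals. For THRA these were C2CD4C at 0.86, STARD7 at 0.80 and ABTB1 at 0.76, and for THRB PUM2 at 0.74, ERO1A at 0.71 and ZNF281 at 0.69. SLC16A10 was most like MFSD4 at 0.74, SKAP2 at 0.72 and PLXDC2 at 0.68, although PLXDC2 had an r of -0.12 within F3. SLCO1C1 was most like CDKN2B at 0.78, NTN5 at 0.74 and NR2E1 at 0.72. For CRYM they were RASGRF2 at 0.79, NPTX2 at 0.78 and MEGF11 at 0.77, each higher in F3, from 0.87 to 0.95, than in F2, from 0.29 to 0.45. In the 10 F1 animals TTR was most like SLC39A12, a zinc transporter gene, at 0.98, XPA at 0.97 and ZFAND2B at 0.94. Every r in these lists was picked as the highest among all genes, for TTR among 11874 genes over only 10 animals. High values can arise from such picking alone, so the lists are descriptions only.

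The effects of sGC on the members were compared between generations by an interaction term in limma, and the comparisons share the animals of a generation. For F1 against F2, 0 of 5 members differed, beside 1.37% of 11612 genes (4.44% with size factors). For F1 against F3 it was 0 of 5 beside 3.63% of 11539 genes (22% with size factors), and for F2 against F3 0 of 5 beside 1.52% of 11638 (1.73% with size factors). Exact permutation of the treatment labels within each generation gave p = 0.0997 or more for every member and pair. The smallest was for SLC16A10 in F1 against F3, with a difference of 0.24. This permutation takes no effect in either generation as its null, so it does not by itself test whether the effects are equal.

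Around the members, a list of 27 other genes of the pathway covered further transporters, retinoid X receptors, corepressors and coactivators, and the hypothalamic and pituitary genes of the thyroid axis. In F1, 23 were tested, 19 higher and 4 lower in sGC as deposited, and 16 higher and 7 lower with size factors. The median log2 fold change as deposited was 0.14 against 0.07 over all genes. Of the 23, 1 passed, beside 0.657% of all genes. That gene was TRHR, the receptor for thyrotropin-releasing hormone. It counted 406, 497, 346, 250 and 317 in F1 Veh and 662, 825, 513, 457 and 786 in F1 sGC. The sGC animals were higher except that SGM16, at 457, lay under the highest Veh animal. The mean rose from 363.2 ± 93.5 (SD, n = 5) to 648.6 ± 162 (SD, n = 5), a log2 fold change of 0.84 (SE 0.18, adjusted p = 0.0314, limma). The call was lost in 5 of the 10 fits that left out 1 animal, with adjusted p-values up to 0.120 (limma). These were the fits without Veh replicates SGM11, SGM15 or SGM19 or sGC replicates SGM8 or SGM20. The summed PVN neuroendocrine markers were 29219, 39205 and 52694 normalized counts in SGM4, SGM8 and SGM20, where TRHR was highest. They were 156892 and 197398 in SGM12 and SGM16. In Veh they were 100877 to 226859, and the largest sum and the highest Veh TRHR were both in SGM7. The part of these cells in the TRHR value was not tested.

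TRH itself, the releasing hormone made in the PVN, counted 3043, 4032, 3067, 2823 and 2673 in F1 Veh and 949, 2160, 1580, 3581 and 938 in F1 sGC. Of the sGC animals 4 were under every Veh animal and 1, SGM16, was above all but 1 of them. On the log2 scale sGC minus Veh was -0.94 (SE 0.25, adjusted p = 0.0802, limma), and -1.0 with size factors (adjusted p = 0.0398, limma). The paper's own edgeR test gave TRH as lower in F1 sGC with an FDR under 0.05. All 9 genes of the PVN neuroendocrine list, which includes TRH, were lower in F1 sGC, with none past the threshold and 6 at an unadjusted p under 0.05 beside 13.6% of all genes, and summed values of 100877 to 226859 in Veh and 29219 to 197398 in sGC. The part of these cells in the TRH value was not tested.

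With size factors 6 genes of the pathway list passed in F1, where 17.3% of all genes did. NCOA1, MED1, ITGAV and TRHR were higher and HDAC3 and TRH lower. HDAC3 belongs to the corepressor complex of the unliganded receptor, NCOA1 and MED1 to the coactivators recruited by the hormone, and ITGAV encodes part of a cell surface receptor for thyroxine. In F2, 22 were tested, 6 higher and 16 lower, and 0 passed, also at an unadjusted p under 0.05 beside 11.7% of all genes. The medians were -0.06 for the list and -0.08 for all genes. With size factors the F2 split was 12 higher and 10 lower. In F3, 10 were higher and 12 lower, 0 passed and 2 had an unadjusted p under 0.05 beside 13.1% of all genes.

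The 2 pathway genes furthest from 0 in F2 were TRHR, with a log2 fold change of 0.30 (adjusted p = 0.571, limma), and ITGAV, with -0.19 (adjusted p = 0.497, limma). In F3 they were TRHR and TSHR, the thyrotropin receptor. TRHR ranged from 638 to 1157 normalized counts in F3 Veh, with a mean of 830.2, and from 360 to 843 in sGC, with a mean of 599.8, a log2 fold change of -0.50 (SE 0.19, adjusted p = 0.272, limma). TSHR had -0.32 (adjusted p = 0.497, limma). TRHR was therefore on opposite sides of 0 in F1 and F3, and the difference of these effects, 1.33 (SE 0.28), passed (adjusted p = 0.00850, limma), as differences did for 3.63% of all genes.

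The output of the pathway was read from 10 genes known to respond to thyroid hormone in brain or liver, such as KLF9, HR, MBP and PCP2. In F1, 9 were tested, 3 higher and 6 lower, and 0 passed. The furthest from 0 were MBP, myelin basic protein, with a log2 fold change of 0.48 (adjusted p = 0.318, limma), and SEMA7A, a semaphorin, with 0.41 (adjusted p = 0.313, limma). In F3, 5 were higher and 4 lower, 0 passed, and the furthest were SEMA7A at -0.31 (adjusted p = 0.444, limma) and PCP2, a Purkinje cell protein, at 0.18 (adjusted p = 0.205, limma).

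In F2 all 9 were lower in sGC as deposited, with a median log2 fold change of -0.25 against -0.08 over all genes. Of the 9, 0 passed, and 5 had an unadjusted p under 0.05 beside 11.7% of all genes. With size factors 2 were higher and 7 lower. MBP counted 52007, 80064, 50718, 40819 and 53294 in F2 Veh and 29666, 20421, 32240, 30287 and 36635 in sGC, and SEMA7A 464, 408, 511, 525 and 504 against 333, 298, 347, 289 and 385. The log2 fold change was -0.88 for MBP (adjusted p = 0.0622, limma) and -0.55 for SEMA7A (adjusted p = 0.0622, limma), just outside the threshold. HR, a corepressor of nuclear receptors, ranged from 479 to 664 in F2 Veh and from 398 to 448 in sGC, with a log2 fold change of -0.41 (adjusted p = 0.0906, limma). The groups did not overlap for these 3 of the 9 responsive genes, as for 2.4% of all genes.

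Oligodendrocyte markers were read beside MBP, and 0 of them passed the threshold in F1 or F2. All 8 of a list that leaves MBP out, such as MOG and MAG, had lower means in F2 sGC, 8 at an unadjusted p under 0.05 beside 11.7% of all genes. The groups did not overlap for any of the 8, as for 2.4% of all genes. The summed value of the 8 was 36622 to 71211 in Veh and 19873 to 31115 in sGC. In F1, 8 of 8 had higher means in sGC, none at an unadjusted p under 0.05 beside 13.6% of all genes. Their sums were 21798 to 27166 in Veh and 20092 to 51200 in sGC. MBP in F1 was highest in sGC replicate SGM8, at 61408, which also had the largest F1 oligodendrocyte sum, 51200. The part of oligodendrocytes in the values of MBP and SEMA7A was not tested.

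The effects on 3 responsive genes differed between generations, in comparisons that share the animals of a generation. MBP differed by 1.36 between F1 and F2 (adjusted p = 0.0381, limma) and by -0.94 between F2 and F3 (adjusted p = 0.0238, limma), and SEMA7A by 0.96 between F1 and F2 (adjusted p = 0.0391, limma). PCP2, lower in F2 sGC by a log2 fold change of -0.33 and higher in F3 by 0.18, differed by -0.51 (adjusted p = 0.0179, limma). With size factors MBP and PCP2 still differed between F2 and F3, while the F1 to F2 differences of MBP and SEMA7A had an adjusted p of 0.0532. Such differences passed for 1.37% of all genes between F1 and F2 and for 1.52% between F2 and F3. Of the 8 oligodendrocyte markers 2 differed between F1 and F2, 0 with size factors, and 7 between F2 and F3 under both scalings. The part of oligodendrocytes in the MBP differences was not tested.

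**Figure D5:**
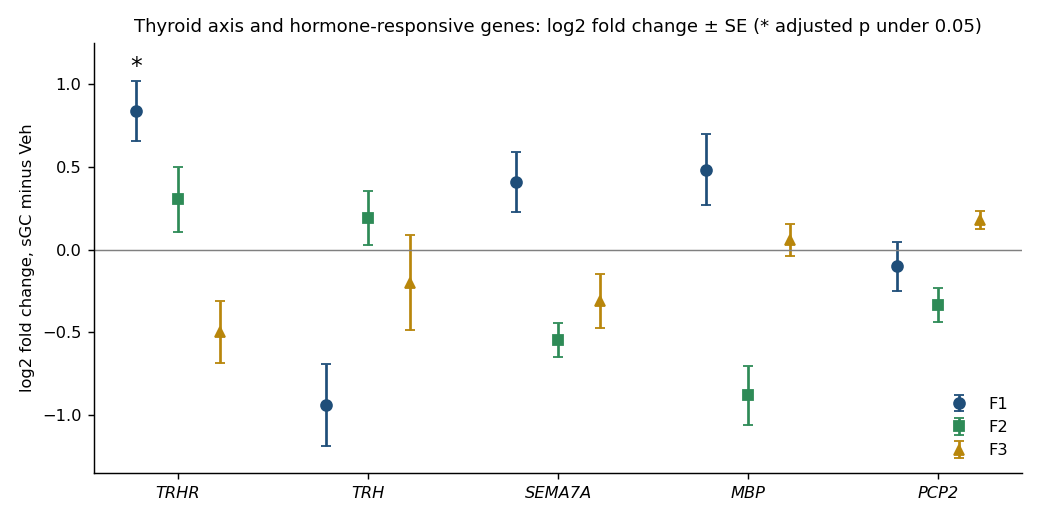
Log2 fold change of sGC against Veh with its standard error (limma, values as deposited) for TRHR, TRH, SEMA7A, MBP and PCP2 in F1 (circles), F2 (squares) and F3 (triangles); the star marks an adjusted p under 0.05. TRHR lies at 0.84 in F1 and -0.50 in F3, and MBP at 0.48 in F1, -0.88 in F2 and 0.06 in F3.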

How the data were processed

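PVN micropunch RNA of 32 female guinea pigs was analysed. Per the paper's methods and the labels, libraries were made with TruSeq V2 and aligned with TopHat2 to cavPor3, reads were counted per gene with GenomicAlignments, F3 batches were corrected with ComBat, and counts were normalized by RUVSeq residuals. The deposited values are these normalized counts rounded to whole numbers, a score with no fixed range and not raw reads, so no count test was run and no counting interval is given. The number of removed directions, read from the values, was 1 for F1, 1 for F2 and 2 for F3. The tables also hold the authors' fold changes, edgeR likelihood ratios and p-values, which were not used. Re-sequenced F3 Veh libraries were not analysed here.

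The test was limma 3.58.1 (R 4.3.3; linear model and trended empirical Bayes) within a generation, on unscaled log2(value + 1) of every gene whose mean reached 10, with Benjamini-Hochberg adjustment over all genes and a threshold of 0.05. A fold change on this scale understates the change of low genes. Differences between generations are interaction terms over the genes tested in both. Alternatives were other scalings, pseudocounts and filters, the removed directions or the F3 batch as covariates, the first F3 batch alone, and leaving out each animal. The procedure was tested on simulated data.

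Members and gene lists were chosen with earlier results of these data known. Named from the pathway and responsive lists are genes under the threshold and the 2 largest absolute log2 fold changes per generation; from marker lists, genes under the threshold, with choroid plexus markers given beside TTR; and the 3 genes most correlated with each member. HR, other marker genes and the genes called with size factors were named after their values were seen. From the pathway list and the oligodendrocyte list 1 gene each is not reported here and is left out of the list's counts, median and sums. No guinea pig sequence was used, so none is shown.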

Additional observations from a re-analysis of the deposited data

Results flagged for a closer look

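F1 Veh replicate SGM7 stood apart from the other Veh animals of its generation in both THRB, at 917 normalized counts against 496 to 583, and SLCO1C1, at 73 against 19 to 26. These were 2 of 56 groups of animals examined over the members and the named pathway and responsive genes, and chance alone flags about 1 in 20, or 2.8 of 56.

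Between generations the effect of sGC differed, by the interaction term in limma, for 4 genes of the pathway and responsive lists, beside 1.37% of all genes between F1 and F2, 3.63% between F1 and F3 and 1.52% between F2 and F3. TRHR differed by 1.33 between F1 and F3. MBP differed by 1.36 and SEMA7A by 0.96 between F1 and F2, and with size factors neither difference passed (adjusted p = 0.0532 for both, limma). MBP differed by -0.94 and PCP2 by -0.51 between F2 and F3.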

How the results depend on the processing

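No member passed the threshold under any other scaling, pseudocount, filter or covariate in any generation. Leaving out 1 animal in turn gave 0 to 1 members in F1, the 1 being SLCO1C1 without Veh replicate SGM7 or TTR without sGC replicate SGM12, and 0 in F2 and F3. The TTR result is a description only, since TTR passed the filter on low values only through the sGC animals. The number of genes past the threshold in F1 depended most on scaling: 2058 with size factors, 1943 with scaling to the total, 2084 with quantile normalization and 1345 with size factors and the removed directions as covariates, and 15 to 474 when 1 animal was left out, the most without Veh replicate SGM7. In F2 it was 42 with quantile normalization, 17 with a mean of at least 50 and 0 to 114 when 1 animal was left out, the most without Veh replicate SGM28. In F3 it was 1 with the removed directions, 3 with the batch as a covariate, 2 in the first batch alone and 1 to 15 when 1 animal was left out, the most without sGC replicate SGM18. Pathway genes past the threshold in F1 were 6 with size factors, 6 with scaling to the total, 6 with quantile normalization, 5 with the removed directions and 0 to 2 when 1 animal was left out, the most without SGM7, SGM12 or SGM16. Responsive genes past it in F2 were 1 with quantile normalization and 0 to 3 when 1 animal was left out, the most without SGM28. The causes of these shifts were not tested.

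The log2 fold changes that changed sign were of values that did not pass the threshold under either setting. With size factors, scaling to the total, quantile normalization and the removed directions, F1 THRA was -0.013, -0.0070, -0.0078 and -0.013 and F1 THRB -0.031, -0.026, -0.053 and -0.031. With size factors, scaling to the total and the removed directions, F2 THRB was 0.0030, 0.013 and 0.0030 and F2 SLC16A10 0.015, 0.024 and 0.015. F3 CRYM was 0.012 with quantile normalization, 0.0064 with a pseudocount of 10, and 0.38 with the batch as a covariate and in the first batch alone. Among the animals analysed the second batch held only sGC animals. The batch covariate therefore gives the same fold change as the first batch alone and cannot estimate a batch effect apart from treatment. With size factors the THRB differences were -0.034 for F1 minus F2, -0.024 for F1 minus F3 and 0.010 for F2 minus F3. When 1 animal was left out the ranges that crossed 0 were -0.017 to 0.13 for F1 THRA, -0.034 to 0.19 for F1 THRB, -0.26 to 0.097 for F1 CRYM, -0.26 to 0.19 for F2 SLCO1C1, -0.049 to 0.14 for F2 CRYM, -0.028 to 0.0075 for F3 THRA, -0.033 to 0.014 for F3 THRB, -0.086 to 0.12 for F3 SLCO1C1, -0.21 to 0.30 for F3 CRYM, -0.38 to 0.014 for F3 TRH and -0.00052 to 0.12 for F3 MBP.

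The precision is set by 5 or 6 animals a group, and in F1 by a Veh group with in effect 4. The normalization also removed 1 direction from the F2 values and 2 from those of F3. The main tests and the printed SDs made no allowance for removed directions, so the spread between animals may be understated. The labels pair no animals, but the columns of each group are numbered from 1. Animals of the same number did not deviate together, with r over 0.1 in 1 of 5 pairs in F1, 1 of 5 in F2 and 2 of 6 in F3. With this number as a replicate block, an alternative chosen after seeing the data, 146 genes passed in F1, 6 in F2 and 0 in F3 (limma; 1127 at an unadjusted p under 0.05), and the counts of members, pathway genes and responsive genes past the threshold were those without it.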
